A study of Mus musculus with 3 samples.

Results

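Barcodes rich in globin, taken as erythroid cells left after red-cell lysis, were examined in single-cell RNA-Seq of B16-F10 melanomas. They were chosen by their globin mRNA: a barcode was taken if it had 200 genes or more, no more than 20% mitochondrial UMIs (unique molecular identifiers, the counted molecules), less than 0.5% of UMIs from the pigment genes Dct and Pmel, at least 10% of UMIs from the 4 adult globin genes Hba-a1, Hba-a2, Hbb-bs and Hbb-bt, and no UMI of Cd3e, Cd79a, Ncr1 or Csf1r, which mark T cells, B cells, NK cells and mononuclear phagocytes. This rule found 105 of 27374 barcodes. Since globin counts chose them, their high globin is a description and not a finding.

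The tumors grew from B16-F10 cells, a mouse melanoma line, that carried shRNAs against Mib2, an E3 ubiquitin ligase (labelled shMib2), or a control shRNA (labelled shCtrl), under the skin of immunocompetent C57BL/6J mice 6 to 8 weeks old. Of the 3 libraries, 2 are labelled shMib2, each with its own shRNA, and 1 is labelled shCtrl. Each library pooled the fresh tumors of 3 mice, so the spread between mice cannot be seen. The shRNAs were in the tumor cells, whereas the erythroid cells came from the hosts, and every tumor suspension was treated with a red-cell lysis solution before capture.

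The libraries held 190904274 and 203298455 UMIs in those labelled shMib2 replicates 1 and 2, against 243926188 UMIs in the one labelled shCtrl, with medians of 21441, 11814 and 25181 UMIs per barcode in the same order. Mib2 itself was measured at 3.13 and 2.66 CPM (UMIs per 1000000 UMIs) in the melanoma barcodes of the libraries labelled shMib2, against 2.49 CPM in that labelled shCtrl. These sparse counts went against the labels, and they stand for 561 and 492 UMIs against 590 UMIs. In the globin-rich barcodes Mib2 had no UMI in any library. Library pairs shared 20 to 30 barcode sequences, and 1 of the 105 barcodes, in the library labelled shMib2 replicate 1, recurred in the library labelled shCtrl.

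Red blood cells carry hemoglobin, a tetramer of alpha and beta globin chains that each hold a heme. In the late steps of their formation the nucleus is lost, and the reticulocyte that remains has no new transcription, so that its mRNA is what was made before. It is mostly globin mRNA, beside mRNAs for heme synthesis, for 2,3-bisphosphoglycerate, which lowers the oxygen affinity of hemoglobin, and for the ubiquitin and autophagy systems that clear mitochondria and ribosomes. Mature red cells lose nearly all RNA.

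The globin genes that define these barcodes lie in an alpha and a beta cluster. In mm10 with GENCODE vM21, Hba-a1 is at chr11:32283511-32284465 and Hba-a2 at chr11:32296489-32297298, both on the plus strand. Hbb-bs is at chr7:103826534-103828096 and Hbb-bt at chr7:103812524-103813996, both on the minus strand. Alas2, which makes the erythroid form of the first enzyme of heme synthesis, is at chrX:150547375-150570638 on the plus strand. Bpgm, the enzyme that makes 2,3-bisphosphoglycerate, is at chr6:34476207-34505613 on the plus strand.

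The promoters of the 4 adult globin genes share short motifs that are known binding sites in erythroid genes, and stretches of 30 bases that hold them are shown because all 4 genes were found in every one of the 105 barcodes. Sequences are from RefSeq on GRCm38.p6, 5′ to 3′ on the strand of the gene, and all 5 genes looked up were matched. Capitals mark the motif CCAAT, the motif CACCC, the motif ATATAA or the motif AGATAA on either strand.
Hba-a2, with CCAAT (chr11:32296381-32296410, plus strand): gtagagcaagcacaaaccagCCAATgagaa
Hbb-bs, with the motif CACCC and the motif CCAAT (chr7:103827995-103828024, minus strand): gagccaCACCCtggtaagggCCAATctgct
Hbb-bt, with the motif CACCC and the motif CCAAT (chr7:103813989-103814018, minus strand): gggtaaCACCCtggcATTGGCCAATctgct
Hba-a2, with ATATAA (chr11:32296449-32296478, plus strand): cccttggagggcATATAAgtgctacttgct
Hbb-bs, with ATATAA (chr7:103827941-103827970, minus strand): ccagggcagagcATATAAggtgaggtagga
Hbb-bt, with ATATAA (chr7:103813935-103813964, minus strand): ccagcATTGGgtATATAAagctgagcaggg
Alas2, with AGATAA on the other strand (chrX:150547319-150547348, plus strand): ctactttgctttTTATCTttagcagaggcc
Hba-a1 held the same letters as Hba-a2 in both stretches, and the 300-base promoter entries of these genes shared a run of 297 bases.

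In the 120 bases before the start, the motif CACCC, the motif CCAAT and the motif ATATAA occurred together in all 4 globin promoters and in 94 of 32851 promoters (0.286%), counting both strands. Alone, CACCC was in 31.7% of promoters, CCAAT in 21.3%, ATATAA in 4.47% and AGATAA, the core to which GATA factors bind, in 4.36%. A match describes the letters and does not show that a factor was bound. For Hba-a1 and Hbb-bs, GENCODE vM21 also has transcripts that start upstream of these stretches.

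The number of globin-rich barcodes was small in every library. Of the barcodes that passed the limits on genes and mitochondrial UMIs, there were 40 of 8568 in the library labelled shMib2 replicate 1 (0.467%, Wilson 95% interval 0.343 to 0.635), 54 of 7283 in replicate 2 (0.741%, 0.569 to 0.966), and 11 of 8817 in the library labelled shCtrl (0.125%, 0.0697 to 0.223). The intervals cover counting error only. The mean share in the libraries labelled shMib2 was 4.84 times that in the library labelled shCtrl (SD 1.56, n = 2 single ratios). An exact permutation test of 2 libraries against 1 cannot reach a p of 0.05, and no test of the shares was run.

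This ratio followed the denominator. Melanoma barcodes, with at least 0.5% Dct and Pmel UMIs, numbered 6658 and 4180 in the libraries labelled shMib2, against 8175 in the library labelled shCtrl. Among barcodes below that share, the globin-rich ones made up 2.09% and 1.74% in the libraries labelled shMib2, against 1.71% in the library labelled shCtrl, a ratio of 1.12 (SD 0.146, n = 2). Fewer melanoma barcodes and more erythroid cells cannot be told apart in such shares, and how completely each suspension was lysed was not measured.

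Most barcodes rich in globin were not among the 105. At least 10% globin UMIs were found in 642 and 787 barcodes of the libraries labelled shMib2, against 344 in the library labelled shCtrl. The minimum of 200 genes removed 91.4% and 90.7% of them in the libraries labelled shMib2, against 92.4% in the library labelled shCtrl. The limit on mitochondrial UMIs then removed 3 or 4 per library, that on Dct and Pmel 4 to 8, and that on the 4 immune genes 4 to 9.

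The barcodes with fewer than 200 genes that met the rest of the rule numbered 583 and 700 in the libraries labelled shMib2, against 311 in the library labelled shCtrl. Their globin share ran between 65.1% and 95.3%, with medians of 90.5% and 88.7% in the libraries labelled shMib2, against 85.8% in the library labelled shCtrl. They held medians of only 80 and 91 genes, against 88 genes. With the minimum of genes left out, the rule took 6.61% (623 of 9428) and 8.99% (754 of 8388) of all barcodes in the libraries labelled shMib2, against 3.37% (322 of 9558) in the library labelled shCtrl, a ratio of 2.31 (SD 0.50, n = 2). With melanoma barcodes left out of the total, the shares were 22.5% and 17.9% in the libraries labelled shMib2, against 23.3% in the library labelled shCtrl, a ratio of 0.868 (SD 0.139, n = 2). The barcodes just inside the minimum had 227, 200 and 257 genes and those just outside 189, 199 and 198 genes, in the order shMib2 replicates 1 and 2 and shCtrl.

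**Figure D1:**
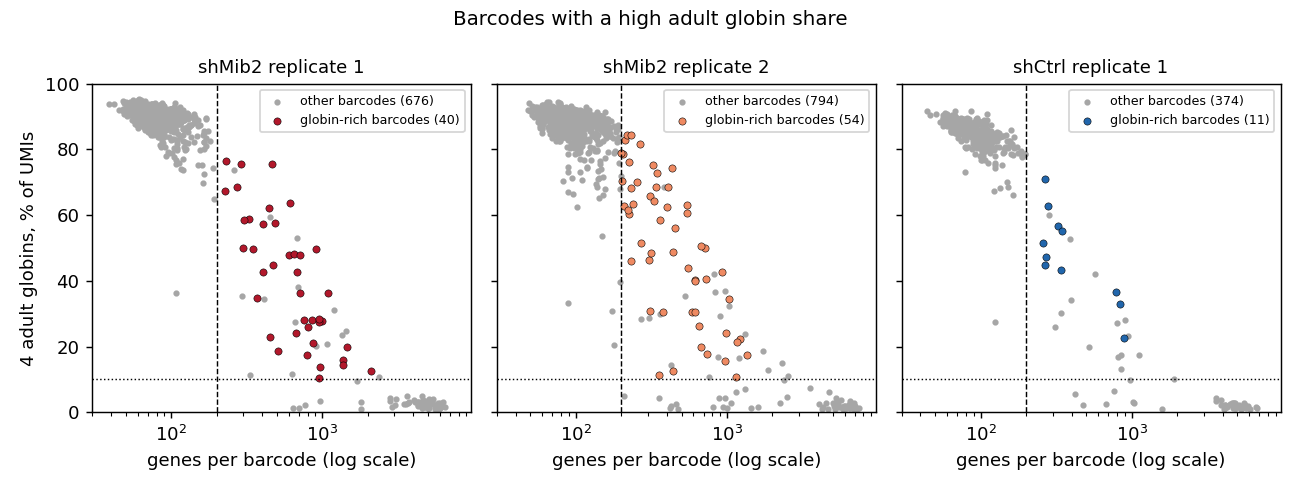
Genes per barcode (log scale) against the share of UMIs from the 4 adult globins (%), for barcodes with at least 1% globin, with 1 panel for each library by its label. The 40, 54 and 11 globin-rich barcodes (colored) extend to the right of the 200-gene minimum (dashed), while the dense grey cloud of barcodes with 65.1% to 95.3% globin lies left of it, and the dotted line is the 10% minimum.

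The 105 barcodes ran from mostly globin to mostly other RNA. Their globin share ranged from 10.5% to 84.4% with a median of 47.7%, their UMIs from 534 to 5480 with a median of 1764, and their genes from 200 to 2110 with a median of 448. By library, the lowest, median and highest globin shares were 10.5%, 39.4% and 76.4% in shMib2 replicate 1, 10.9%, 51.1% and 84.4% in shMib2 replicate 2, and 22.6%, 47.2% and 71.1% in shCtrl. The ranges of the 3 libraries overlapped. At the 10% threshold, the values just inside were 10.5%, 10.9% and 22.6% and those just outside 9.37%, 9.75% and 9.73% in the same order.

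The more globin a barcode had, the fewer genes it had. Over the 105 barcodes the globin share and the number of genes had a Pearson r of −0.72 and a Spearman rho of −0.77, and the share and the non-globin UMIs had −0.70 and −0.75. These values describe barcodes that share 3 libraries, and the share holds the non-globin UMIs in its denominator. Of the 105 barcodes, 46 had at least 50% globin (12, 29 and 5 by library in the order above) and 59 had less (28, 25 and 6).

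**Figure D2:**
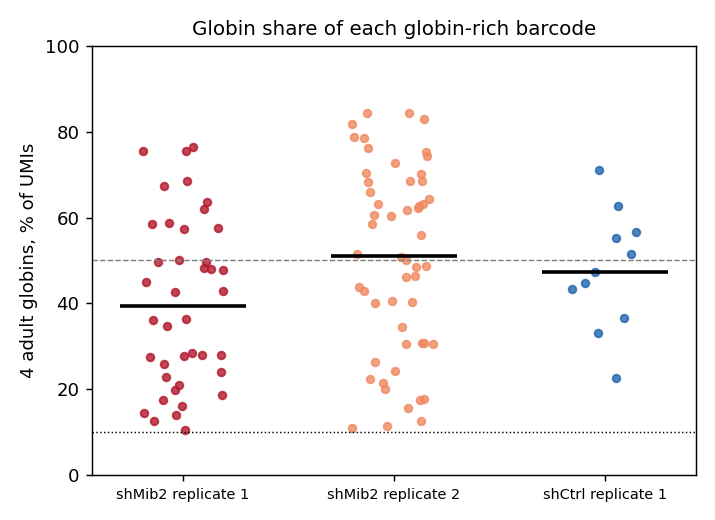
Share of UMIs from the 4 adult globins (%) in each globin-rich barcode by library label, with the median as a bar, the 10% minimum as a dotted line and 50% as a dashed line. The medians were 39.4% and 51.1% in the libraries labelled shMib2, against 47.2% in the library labelled shCtrl, and the points of the 3 libraries overlap.

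All 4 adult globins were present in each of the 105 barcodes, with the beta chain Hbb-bs the most abundant. Hbb-bs had 17276 and 27818 UMIs in the libraries labelled shMib2, against 3532 UMIs in the library labelled shCtrl. Hba-a1 had 6067 and 8167 UMIs in the libraries labelled shMib2, against 1158 UMIs, Hba-a2 had 4719 and 6107 UMIs, against 840 UMIs, and Hbb-bt had 3361 and 5047 UMIs, against 743 UMIs. Together they made 35.6% and 47.2% of the UMIs in the libraries labelled shMib2, against 43.9% in the library labelled shCtrl.

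The ratios of the chains lay in narrow ranges over the 3 libraries. Alpha UMIs over beta UMIs were 0.523 and 0.434 in the libraries labelled shMib2, against 0.467 in the library labelled shCtrl, which lay between them. Hba-a1 over Hba-a2 was 1.29 and 1.34 in the libraries labelled shMib2, against a higher 1.38 in the library labelled shCtrl. Hbb-bs over Hbb-bt was 5.14 and 5.51, against a lower 4.75. These ratios had no test.

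The barcodes with fewer than 200 genes gave chain ratios near those of the 105, though not always in the same order of libraries. Alpha over beta was 0.501 and 0.445 in their libraries labelled shMib2, against 0.420 in the library labelled shCtrl, and Hbb-bs over Hbb-bt was 5.23 and 5.60, against 4.58. Hba-a1 over Hba-a2 was 1.30 and 1.31, against 1.29, so that the library labelled shCtrl was no longer the highest, and alpha over beta was lowest in it. Among single barcodes of the 105 the alpha to beta ratio spread more widely, between 0.221 and 0.731 in shMib2 replicate 1, between 0.151 and 0.656 in shMib2 replicate 2 and between 0.313 and 0.607 in shCtrl. The gene copies are close in sequence, so the split between copies depends on how reads were assigned: of the stretches of 90 bases in the annotated transcript of Hba-a2, 77.2% also occur in that of Hba-a1, and of those in Hbb-bs, 63.3% also occur in Hbb-bt.

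**Figure D3:**
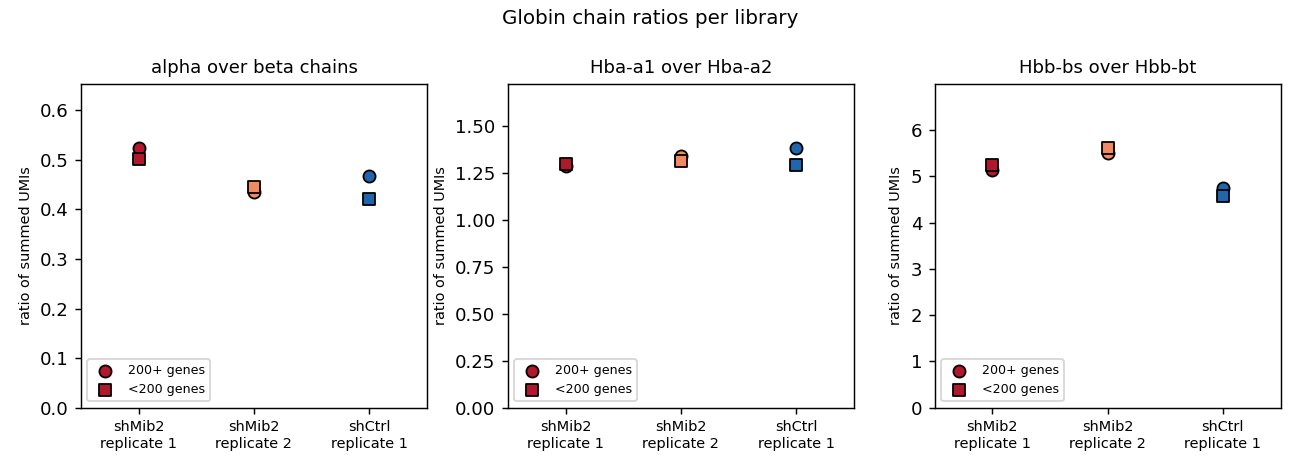
Ratio of summed UMIs of alpha over beta chains, of Hba-a1 over Hba-a2 and of Hbb-bs over Hbb-bt, by library label, for barcodes with at least 200 genes (circles) and fewer (squares), with axes from 0. Circles and squares of a library lie close together, and alpha over beta of the 105 barcodes was 0.523 and 0.434 in the libraries labelled shMib2, against 0.467 in the library labelled shCtrl.

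Embryonic and fetal globins were nearly absent. Of 6 such genes matched, only 2 had a UMI, with 1 and 6 UMIs in the libraries labelled shMib2, against 2 UMIs in the library labelled shCtrl, and 8 of these 9 UMIs were of the theta chain gene Hbq1b. Hba-x, Hbb-y, Hbb-bh1 and Hbb-bh2 had 0 UMIs in the 105 barcodes.

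Alas2 and Bpgm are markers that came with the label and that the rule did not use. Their UMIs describe the RNA of a barcode. They cannot tell an erythroid cell from another cell that holds red-cell RNA. Alas2 had at least 1 UMI in 79 of the 105 barcodes and Bpgm in 61. Alas2 had 56 and 138 UMIs in the libraries labelled shMib2, against 25 UMIs in the library labelled shCtrl, which is 9.87 and 26.2 per 10000 non-globin UMIs, against 31.2. In T-cell barcodes (below 0.5% Dct and Pmel and below 10% globin, with a Cd3e UMI) and in melanoma barcodes, Alas2 stood at 0.01 per 10000 in each. Bpgm was at 6.34 and 15.2 per 10000 non-globin UMIs in the libraries labelled shMib2, against 32.5 in the library labelled shCtrl, with 0.16 in T-cell and 0.30 in melanoma barcodes.

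Both genes stood far above their levels in other cells. When every barcode was thinned to 500 UMIs, Alas2 was seen in 22.5% and 51.9% of the globin-rich barcodes in the libraries labelled shMib2, against 63.6% in the library labelled shCtrl, whereas unthinned the shares were 62.5% and 83.3%, against 81.8%. No barcode was left out by thinning. In thinned T-cell barcodes Alas2 was in 0 of 298 and 519, against 0 of 31, and unthinned it was in 0 and 2 of them, against 0, at median depths of 2010.5 and 3121 UMIs, against 1712 UMIs (1938 and 1719 UMIs, against 1036 UMIs, in the globin-rich barcodes).

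The red-cell genes were higher in level where the globin share was higher, and highest in the barcodes with fewer than 200 genes. Over the 3 libraries, Alas2 was at 57.5 per 10000 non-globin UMIs in the globin-rich barcodes with at least 50% globin and at 8.67 in those with less, against 217.5 in barcodes with fewer than 200 genes. Bpgm was at 35.0 and 6.21, against 127.2. Mkrn1, an E3 ubiquitin ligase at chr6:39397804-39420462 on the minus strand, was at 42.5 and 6.63, against 127.1. These levels are per 10000 non-globin UMIs, so the globins themselves do not lower them.

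Over single barcodes the same held less tightly. The Pearson r and Spearman rho with the globin share were 0.61 and 0.63 for Alas2, 0.55 and 0.53 for Bpgm and 0.56 and 0.52 for Mkrn1, each per 10000 non-globin UMIs over 105 barcodes that share 3 libraries, at a few UMIs each. Non-globin UMIs stand in the denominator of both values, so part of each correlation can come from that.

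**Figure D4:**
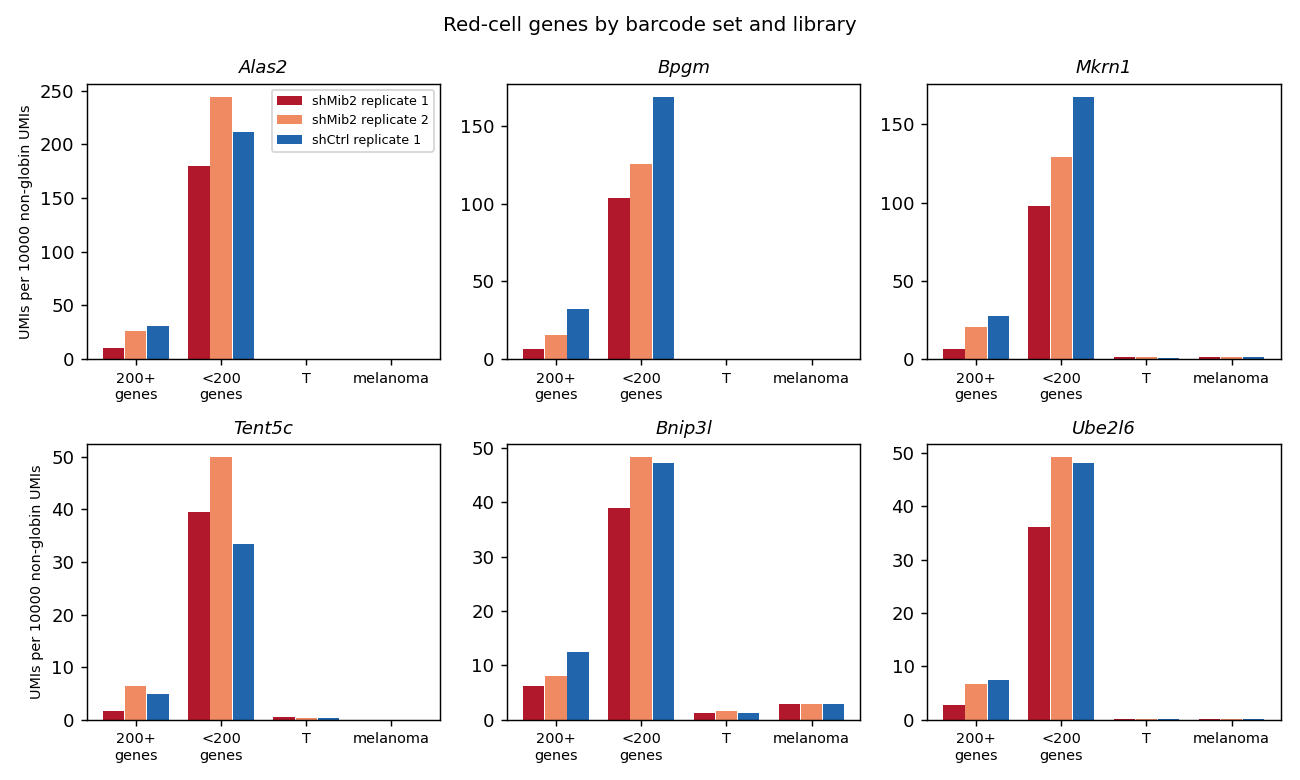
UMIs per 10000 non-globin UMIs of 6 red-cell genes in globin-rich barcodes with at least 200 genes, barcodes with fewer than 200 genes, T-cell barcodes and melanoma barcodes, with a bar for each library by its label and no error bars. Alas2 was at 9.87 and 26.2 in the first set of the libraries labelled shMib2, against 31.2 in that labelled shCtrl, and at 179.8 and 244.3, against 211.3, in the second.

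Heme synthesis was carried mainly by Alas2. Of 15 genes of the list 13 had a UMI, with 113 and 209 UMIs in the libraries labelled shMib2, against 42 in the library labelled shCtrl. Fech, which inserts the iron, had 11 and 24 UMIs, against 2, and Slc25a37, the mitochondrial iron importer, had 10 and 14 UMIs, against 4. Slc25a39, a mitochondrial carrier needed for glutathione import, had 17 and 19 UMIs, against 3. Fech was at 9.58 per 10000 non-globin UMIs at 50% globin or more and at 1.5 below it, against 28.7 in barcodes with fewer than 200 genes and 0.10 in T-cell barcodes.

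Iron storage genes were abundant in these barcodes and also outside them. Ftl1, the ferritin light chain, had 512 and 598 UMIs in the libraries labelled shMib2, against 101, or 90.2 and 113.4 per 10000 non-globin UMIs, against 126.1. Fth1, the heavy chain, was at 70.5 and 133.4 per 10000, against 101.1. Melanoma barcodes had 100.2 of Ftl1 and 88.2 of Fth1, so that these genes did not set the globin-rich barcodes apart from tumor cells. T-cell barcodes had 17.3 and 31.2.

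Genes of the red-cell membrane were thinly counted. Epb41, protein 4.1 of the membrane skeleton, had 19 and 23 UMIs in the libraries labelled shMib2, against 3 UMIs in the library labelled shCtrl, and Slc4a1, the anion exchanger band 3, had 5 and 3 UMIs, against 3. Cd24a, a surface glycoprotein of maturing red cells, had 7 and 14 UMIs, against 6. In spite of the low counts, Cd24a was at 7.91 per 10000 non-globin UMIs at 50% globin or more and at 0.86 below it, against 21.9 in barcodes with fewer than 200 genes and 0.09 in T-cell barcodes.

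Genes of energy and redox metabolism were counted in these barcodes and also in other cells. Over the 3 libraries the glycolysis and 2,3-bisphosphoglycerate list was at 214.5 per 10000 non-globin UMIs, beside 79.0 in T-cell and 241.5 in melanoma barcodes. The list of antioxidant enzymes was at 67.7, beside 31.8 and 54.6. The list of glycolysis and 2,3-bisphosphoglycerate, with 14 of 15 genes seen, was at 229.3 and 183.4 per 10000 non-globin UMIs in the libraries labelled shMib2, against 314.7 in the library labelled shCtrl. Gapdh alone, a glycolytic enzyme of all cells, had 408 and 294 UMIs, against 60, and was at 71.5 per 10000 in melanoma barcodes as well. Gpx1, which removes hydrogen peroxide with glutathione, was at 9.16 and 15.4 per 10000, against 21.2, with 37.5 at 50% globin or more, 6.42 below it and 65.9 in barcodes with fewer than 200 genes. Prdx2, the main peroxiredoxin of red cells, was at 11.7, 5.03 and 22.9 in the same order of sets.

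The genes that clear organelles were likewise higher in level at high globin. Bnip3l, the receptor that removes mitochondria from reticulocytes, had 35 and 42 UMIs in the libraries labelled shMib2, against 10 UMIs in the library labelled shCtrl. It stood at 18.7 per 10000 non-globin UMIs at 50% globin or more and at 4.49 below it, against 45.1 in barcodes with fewer than 200 genes. Ube2l6, a conjugating enzyme for ubiquitin and ISG15, was at 13.3 and 2.68, against 44.8, and Ube2o, an enzyme that ubiquitinates ribosomal proteins in reticulocytes, at 4.17 and 0.86, against 12.9. Map1lc3b, an autophagosome protein, was at 7.91 and 4.71, against 33.4.

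Tent5c, a poly(A) polymerase that lengthens mRNA tails, had 9 and 34 UMIs in the libraries labelled shMib2, against 4 UMIs in the library labelled shCtrl. It was at 14.6 per 10000 non-globin UMIs at 50% globin or more and at 1.28 below it, against 43.3 in barcodes with fewer than 200 genes and 0.37 in T-cell barcodes. Car2, carbonic anhydrase 2, had 5 and 10 UMIs in the libraries labelled shMib2, against 9 UMIs in the library labelled shCtrl, and was at 0.88 and 1.90 per 10000, against 11.2. Of the 9 UMIs, 6 lay in 1 barcode.

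Regulators of early erythroid cells had few UMIs. The list of erythroid transcription factors, of which 8 of 14 genes had a UMI, had 21 and 16 UMIs in the libraries labelled shMib2, against 3 UMIs in the library labelled shCtrl, or 3.41 per 10000 non-globin UMIs in all, beside 2.21 in T-cell and 2.44 in melanoma barcodes. The most counted were Nfe2l2, Ldb1 and Lmo2, with 8, 7 and 7 UMIs over the 3 libraries. Gata1 had 1 UMI in the 105 barcodes, and Klf1, Tal1, Nfe2, Kit and Gata2 had 0. The progenitor list had 11 and 9 UMIs in the libraries labelled shMib2, against 0 in the library labelled shCtrl, at most 3 in a barcode. The proliferation list had 54 and 47 UMIs, against 16, and 5 barcodes held 5 UMIs or more of it, all of them under 50% globin. At these depths a gene at 0 UMIs was not detectable, which does not show that it was absent.

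The 20 most abundant genes outside globins, mitochondrial and ribosomal protein genes were mostly not of red cells. They included Gm42418, an annotated gene within ribosomal RNA sequence, with 441 and 661 UMIs in the libraries labelled shMib2, against 75, Tpt1, with 333 and 344 UMIs, against 49, Eef1a1, an elongation factor, with 296 and 310 UMIs, against 32, and Actb, beta-actin, with 246 and 207 UMIs, against 42. In the barcodes with fewer than 200 genes, 7 of these 20 were again among the top 20, where Alas2, Bpgm, Mkrn1 and Tent5c also stood. Oaz1, an inhibitor of polyamine synthesis, was at 22.4 per 10000 non-globin UMIs in the 105 barcodes, against 111.8 in barcodes with fewer than 200 genes.

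Markers of fibroblasts, T cells and NK cells lay mostly in the barcodes with less globin. The levels of mononuclear phagocyte and melanoma genes were not higher there, though the rule itself limited the melanoma genes Dct and Pmel. The fibroblast list had 551 and 1 UMIs in the libraries labelled shMib2, against 0 in the library labelled shCtrl, and only 3 barcodes, all in shMib2 replicate 1 and all under 50% globin, held 5 or more of them (the highest 189). Col3a1 alone gave 237 of these UMIs in that library. T-cell genes other than Cd3e had 26 and 35 UMIs, against 5, and 8 barcodes held 5 or more, again all under 50% globin. NK-cell genes had 46 and 6 UMIs, against 0, of which the protease gene Gzma gave 39 and 3, against 0.

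Below 50% globin the non-globin RNA thus included genes of other cells beside those of red cells. A single cell type was not shown, and the 105 barcodes are called globin-rich here after the rule. Barcodes under 50% globin also held more non-globin UMIs. Their medians were 1635 and 1158 in the libraries labelled shMib2, against 982.5 in the library labelled shCtrl. At 50% globin or more the medians were 481.5 and 451, against 387, so 5 UMIs of a list were easier to reach below it. Malat1, a nuclear RNA, was at 36.2 per 10000 non-globin UMIs at 50% globin or more and at 77.8 below it, against 11 in barcodes with fewer than 200 genes, and at 82.1 in T-cell barcodes. Mononuclear phagocyte genes had 23 and 24 UMIs, against 7, in 8 barcodes, of which 2 of the 5 with at least 5 UMIs had 50% globin or more. Over the 3 libraries they were at 7.91 per 10000 non-globin UMIs at 50% globin or more and at 3.75 below it. The lists of neutrophils, mast cells and basophils, and platelets and megakaryocytes were at 0 in all 3 libraries, and B-cell genes had 2 and 1 UMIs, against 0. Whether such a barcode held 2 cells, or 1 cell with free RNA, was not tested, and no doublet caller was run.

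Melanoma RNA was seen in nearly all of the 105 barcodes, but unevenly. Only 31 of them held 5 or more UMIs of the melanoma list. Single barcodes held up to 56 and 15 in the libraries labelled shMib2, against 11 in the library labelled shCtrl. The 8 melanoma genes had 230 and 204 UMIs in the libraries labelled shMib2, against 38 UMIs in the library labelled shCtrl, and 94 of the 105 barcodes had at least 1. Dct, an enzyme of melanin synthesis, had 57 and 71 UMIs, against 20, in 69 barcodes. The list stood at 62.5 per 10000 non-globin UMIs at 50% globin or more and at 34.5 below it, against 99.5 in barcodes with fewer than 200 genes and 202.8 in melanoma barcodes. The rule limited Dct and Pmel as a share of all UMIs, globin included. Per non-globin UMI this limit was stricter where globin was lower. Melanoma barcodes were chosen for a high share of these same genes. The order of these levels can thus come in part from the rule, and how far was not tested.

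**Figure D5:**
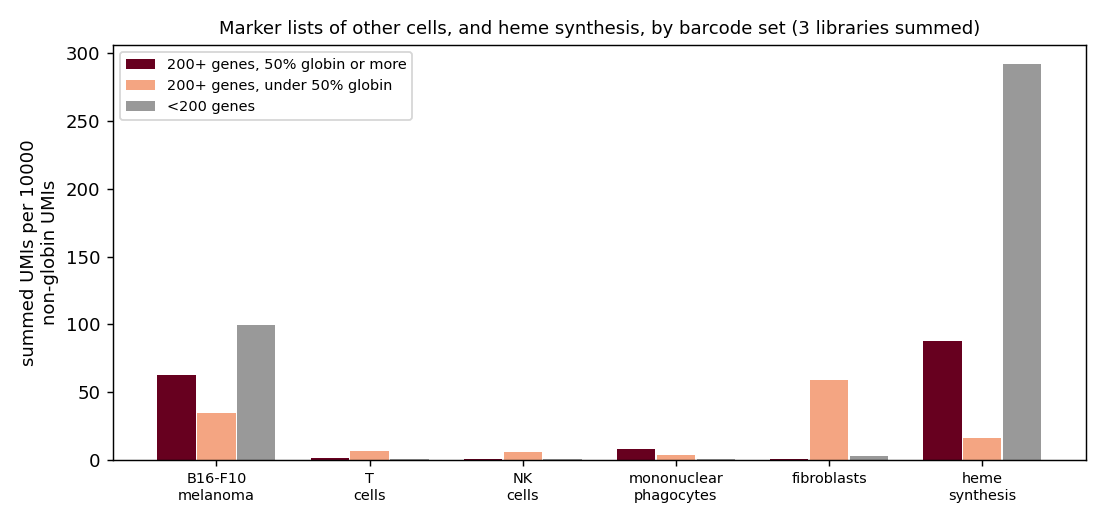
Summed UMIs per 10000 non-globin UMIs of marker lists of 5 other cell types and of the heme synthesis list, over the 3 libraries together, in globin-rich barcodes with at least 50% globin (dark red), with less (light red), and in barcodes with fewer than 200 genes (grey), with no error bars. Fibroblast genes stood at 0.83, 58.9 and 2.83 and heme synthesis genes at 87.9, 16.4 and 291.7 in this order.

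Globin UMIs were also found outside these barcodes. In melanoma barcodes 74.0% and 82.7% had a globin UMI in the libraries labelled shMib2, against 48.7% in the library labelled shCtrl, at 3.26 and 3.02 globin UMIs per 10000 UMIs, against 1.46. Some of these barcodes were themselves rich in globin, up to 73.6% and 68.7%, against 60.2%. Among those under 1% globin the levels were 0.919 and 1.02 per 10000, against 0.606. In T-cell barcodes 54.0% and 57.4% had one, against 19.4%, at 2.59 and 7.11 per 10000, against 1.86. A single barcode of shMib2 replicate 2 gave 1305 of its 1903 globin UMIs, and without the barcode highest in globin UMIs in each library the levels were 2.42 and 2.25, against 1.41. T cells are not known to make hemoglobin, and the source of these UMIs was not tested. T-cell barcodes were taken below 10% globin, so the 10% minimum lies above them by definition. These levels were higher in both libraries labelled shMib2, and so were the counts of globin-rich barcodes. The T-cell level in the library labelled shCtrl rests on 31 barcodes with 15 globin UMIs.

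Genes were compared between the libraries labelled shMib2 and shCtrl on UMIs summed over the 105 barcodes, and no gene, red-cell genes included, passed the test. In the quasi-likelihood test of edgeR, adjusted after Benjamini and Hochberg, 0 of 1031 genes (0%) had an adjusted p under 0.05, and 71 had an unadjusted p under 0.05. DESeq2 also called 0, with 3 unadjusted. When total UMIs replaced the TMM scaling, edgeR called 5 genes (0.485%): the carbonic anhydrase gene Car2 was lower in the libraries labelled shMib2, with 5 and 10 UMIs, against 9 UMIs, and the collagen genes Col1a1, Col1a2 and Col3a1 and S100a6 were higher. The collagen UMIs lay almost all in the 3 barcodes with fibroblast genes. The 9 Car2 UMIs of the library labelled shCtrl lay in 3 barcodes, 6 of them in 1 barcode. When genes of low counts were not filtered, edgeR called 21 of 9063 (0.232%), the globins Hbb-bs and Hba-a2 among them, but the median log2 fold change over all genes was then 2.02. The lowest adjusted p in edgeR was 0.662. The median log2 fold change over all genes was 0.25 in the first test, toward the libraries labelled shMib2, and 0.11 without TMM.

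None of the 4 markers passed the test in edgeR. Hba-a1 had a log2 fold change of 0.08 and Hbb-bs of 0.14. Alas2 had a log2 fold change of −0.56 (SE 0.68, adjusted p = 0.851 in edgeR) and Bpgm of −1.36 (SE 0.62, adjusted p = 0.662 in edgeR). Both Alas2 values of the libraries labelled shMib2, 9.87 and 26.2 per 10000 non-globin UMIs, lay below the 31.2 of the library labelled shCtrl. The size rested on single libraries: without shMib2 replicate 1 the log2 fold change of Alas2 was −0.0017 and that of Bpgm −0.84, and without shMib2 replicate 2 they were −1.48 and −2.17, with 1 library against 1 and no test.

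The lists gave no call either, and the share called over all genes was 0%. Of the heme synthesis list 5 of 15 genes could be tested, with a median log2 fold change of −0.56, of glycolysis and 2,3-bisphosphoglycerate 11 of 15 with −0.57, of antioxidant enzymes 8 of 17 with −0.52, and of organelle clearance 10 of 23 with −0.36, beside 0.25 over all genes tested. The 11 immediate early genes, induced by stress and growth signals, had 234 and 231 UMIs in the libraries labelled shMib2, against 15 UMIs in the library labelled shCtrl, and 0 of them passed the test. Of these UMIs, 426 lay in barcodes under 50% globin and 54 in those with more. Single barcodes held up to 78 and 56 of them in the libraries labelled shMib2, against 12 in the library labelled shCtrl. T-cell barcodes had 42.6 per 10000 non-globin UMIs of these genes. As summed levels per 10000 non-globin UMIs, heme synthesis was at 19.9 and 39.6 in the libraries labelled shMib2, against 52.4 in the library labelled shCtrl, and immediate early genes at 41.2 and 43.8, against 18.7. The share of barcodes with at least 50% globin, 12 of 40 and 29 of 54 in the libraries labelled shMib2, against 5 of 11 in the library labelled shCtrl, differed too, and its part in these levels was not tested.

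With 11 barcodes and 14281 UMIs in the library labelled shCtrl and 1 residual degree of freedom, the test recovered mainly very large changes. In simulated data of the same sizes with 200 of 1031 genes changed, it recovered 0 of 200 at a log2 fold change of 1, 3 at 2 and 94 at 3. The count of 0 thus does not show that these genes were alike.

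The barcodes with fewer than 200 genes made a larger set for the same comparison, chosen after seeing the data. Over all barcodes of the rule with at least 50% globin and no minimum of genes, edgeR called 4 of 1165 genes (0.343%), with 101 at an unadjusted p under 0.05. Isg15, a ubiquitin-like protein induced by interferon, fell: it had 61 and 126 UMIs in the libraries labelled shMib2, against 122 UMIs in the library labelled shCtrl, with a log2 fold change of −1.50 (SE 0.30, adjusted p = 0.000457 in edgeR). In CPM on total UMIs these were 104.1 and 154.9, against 486.2. In the 105 barcodes alone Isg15 had only 30 and 18 UMIs, against 6 UMIs, and an adjusted p of 0.817 in edgeR. Of the 6 genes of the interferon list tested in the wider set Isg15 alone passed, while 4 of the 6, among them B2m and Ifitm3 at 1.14 and 1.11, had log2 fold changes above 0 and did not pass.

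Fam210b, a mitochondrial protein of erythroid differentiation, fell as well, with 13 and 22 UMIs in the libraries labelled shMib2, against 25 UMIs in the library labelled shCtrl, and a log2 fold change of −1.60 (SE 0.42, adjusted p = 0.0430 in edgeR). In both of these genes the libraries labelled shMib2 lay below the library labelled shCtrl in CPM. The median log2 fold change over all genes of this set was 0.04. Tmsb4x, an actin-binding peptide, had 100 and 103 UMIs, against 1 UMI, which is 42.8 (95% counting interval 7.51 to 1708) and 31.8 (5.58 to 1267) times the CPM of the library labelled shCtrl. Tmsb4x was at 176.6 per 10000 non-globin UMIs in T-cell barcodes and at 1.73 in melanoma barcodes, and whether T-cell RNA carried this difference was not tested.

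With the 4 globins left out, Isg15, Fam210b and Tmsb4x passed again in edgeR, with adjusted p between 1.11e-12 and 0.00716, together with Tspo2, a cholesterol-binding protein of erythroid cells, and Yipf4, both lower in the libraries labelled shMib2 (6 of 981 genes, 0.612%). All calls were lost when the globin minimum was set back to 10%: without a minimum of genes and with at least 10% globin, edgeR called 0 of 1888 genes (0%), with 172 at an unadjusted p under 0.05. The log2 fold changes of Isg15 and Fam210b were then −1.68 and −2.05 (adjusted p = 0.240 and 0.152 in edgeR). Fam210b had the same 13 and 22 UMIs, against 25 UMIs, in both sets, so its change rests on no added counts. Red-cell markers moved the same way, Alas2 from −0.07 to −0.48 and Bpgm from −0.65 to −1.07. The log2 fold change of Tmsb4x was 1.54, on 358 and 355 UMIs in the libraries labelled shMib2, against 42 UMIs in the library labelled shCtrl (adjusted p = 0.291 in edgeR). The library labelled shCtrl is alone in its group, so its own deviation cannot be told apart from the effect of the shRNA.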

How the data were processed

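Single-cell libraries were made with the Chromium Single Cell V(D)J kit, which reads the 5′ end of transcripts. Per the labels, the authors used Cell Ranger 4.0.0 and the mm10 build, and deposited raw UMI counts for 32285 genes in each of the 3 libraries, without normalization. No barcode had fewer than 500 UMIs. Groups were taken from the labels. No single-cell test design was given in the sources used here.

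UMIs were summed per library over the barcodes of the rule. Genes kept by filterByExpr were scaled by TMM and tested with the quasi-likelihood test of edgeR 4.0.16, with p-values adjusted after Benjamini and Hochberg over all genes tested at 0.05, after a check on simulated data. DESeq2 1.42.0, other scalings and filters, and other limits on globin, genes and UMIs were tried as alternatives. Where nothing says that libraries came from separate experiments, p-values measure only the spread between these libraries. Within groups, this spread comes from the 2 libraries labelled shMib2, each with its own shRNA. The lone library labelled shCtrl was assumed to vary as they do. Levels are UMIs per 10000 non-globin UMIs. Shares carry Wilson 95% intervals, and barcodes were thinned to 500 UMIs with seed 7. Of 262 listed symbols 261 were matched, and the other was not analysed here. Named genes were the globins and the 4 markers, the 20 most abundant other genes, 2 to 5 members of each list with the most UMIs, and genes called. The results of a few genes are not reported here. Further genes (in red-cell roles, and genes at 0) were named after their values were seen. The barcodes and the 17 gene lists were chosen with earlier results of these data known.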

Additional observations from a re-analysis of the deposited data

Results flagged for a closer look

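Barcodes with fewer than 200 genes that met the rest of the rule lay outside the comparison. Their number was higher under each shMib2 label than under the shCtrl label. The rule chose them by their globin, so the globin in them is not itself a finding. There were 583 such barcodes in the library labelled shMib2 replicate 1 and 700 in replicate 2, against 311 in the library labelled shCtrl, or 6.18% and 8.35% of all barcodes, against 3.25%. With melanoma barcodes left out of the total, the share of all barcodes that meet the rule without its minimum of genes was 22.5% and 17.9%, against 23.3%, so the excess depends on the denominator. They were not part of the 105 barcodes because of the minimum of genes alone.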

How the results depend on the processing

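The share of globin-rich barcodes in the libraries labelled shMib2 over that in the library labelled shCtrl was 4.84, and was 2.30 with no minimum of genes, 8.51 with at least 500 genes, 3.07 with Dct and Pmel not asked, 1.12 without melanoma barcodes in the denominator, 2.26 with no minimum of genes and at least 50% globin, and 0.868 with no minimum of genes and without melanoma barcodes in the denominator. Hba-a1 over Hba-a2, as a ratio of groups, was 0.951 and was 0.924 with at least 1000 UMIs, 1.02 as a median over barcodes and 1.01 with no minimum of genes. Hbb-bs over Hbb-bt was 1.12 and was 1.04 at 30% globin, 1.46 as a median and 1.18 with no minimum of genes. Among list levels, glycolysis was 0.656 and 0.765 with no minimum of genes, antioxidant enzymes 0.664 and 0.724 at 50% globin, and organelle clearance 0.591 and 1.02 at 50% globin. The causes were not tested. The settings with no minimum of genes, other than that for the share alone, were chosen after seeing the data. edgeR's counts of 0 higher and 0 lower were 4 and 1 with total UMIs in place of TMM, 20 and 1 with no filter on low counts (of 9063 genes), 1 and 3 with no minimum of genes at 50% globin, and 1 and 5 with the globins also left out. Hba-a1 turned to −0.0875 and Hbb-bs to −0.0442 without TMM, and to −0.13 and −0.0739 with at least 50 UMIs per gene. Leaving out 1 library labelled shMib2 gave −0.25 to 0.35 for Hba-a1 and −0.35 to 0.51 for Hbb-bs, with the negative values without shMib2 replicate 2. Of the 3 marker genes that changed sign, Alas2 turned to 0.14 with no filter and to 0.10 at 50% globin. Where a library is left out, 1 library stands against 1, and the values have no test. Depth limits the settings with the minimum of 200 genes, where the library labelled shCtrl has 11 barcodes. No paired analysis was possible because the library labelled shCtrl is 1 library, and the groups share only 1 replicate number.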
